A study of Arabidopsis thaliana with 10 samples.

Results

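The comparison described here is the effect of JAV1 knockdown on leaf transcripts while jasmonate signalling was switched on from outside. It uses 4 of the 10 arrays of the study, chosen by their labels: Ri17 after 1 h and 4 h of 100 µM methyl jasmonate (MeJA), and Col-0 after the same treatment and times. Ri17 is a transgenic line carrying an RNA interference construct against JAV1 in the Col-0 background, and Col-0 is the wild type of Arabidopsis thaliana. All plants were 21 days old, and the labels give the tissue as leaves. MeJA was given to seedlings grown in MS medium. The other 6 arrays hold both genotypes untreated and at 30 min and 60 min after the leaves had been crushed with a forceps. One RNAi line stands for the knockdown, and no array carries mock-treated plants, so a line effect and an effect of handling cannot be told apart from knockdown and hormone.

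Methyl jasmonate is converted in the plant to jasmonoyl-isoleucine, which is bound by the F-box protein COI1 together with JAZ repressors. The JAZ proteins are then degraded, and MYC factors turn on jasmonate synthesis, wound and insect defence genes, while ERF factors, acting with ethylene, turn on defensins and other antimicrobial proteins. JAV1 is a VQ-motif protein known as a restraint on jasmonate defence that is itself removed when jasmonate is perceived. A knockdown compared with wild type under MeJA therefore asks what the line adds once the hormone has been supplied. The annotation used named no probe set for JAV1 or the JAZ genes, and they were not analysed here.

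Each of the 22810 probe sets gives a signal intensity, scaled by the authors to the same mean on every array, with a detection call of Present, Marginal or Absent. On the 4 MeJA arrays the median signal lay between 122.85 and 130.5, with Present calls for 13556 to 13905 probe sets. Signals under 37.7 were set to that floor before log2 values were taken, and 15382 probe sets that were Present on at least 2 arrays were compared. A log2 difference below is always Ri17 minus Col-0 at the same time, so that 1 stands for a doubling in Ri17. Where 1 array of a pair lay under the floor, the difference is given as a bound with the words "at least". Each value at 1 time rests on 1 array per genotype and carries no error. The mean of both times has a standard error from limma, whose spread holds array noise together with any real change of the genotype difference between the times of a treatment.

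The ratio of 3' to 5' signal for the actin control was 9.86 and 10.7 on the Ri17 arrays at 1 h and 4 h, against 10.2 and 9.7 on the Col-0 arrays. For the GAPDH control it was 2.31 and 2.45 in Ri17, against 2.04 and 2.14 in Col-0. Of 36 markers of leaf, root, vascular, stomatal, trichome, meristem, flower and seed cells, 13 had a named probe set, and the 5 leaf markers had none. Photosystem and light-harvesting genes, which are abundant in leaf cells, had a median signal of 16500 on the MeJA arrays. The stomatal genes SPCH and MUTE, the trichome gene GL1, the meristem genes WUS and CLV3 and the flower gene AP3 were Absent on all 4 MeJA arrays. The summed signal of 3 vascular markers was 3020 and 2470 in Ri17, against 2440 and 2140 in Col-0. That of 4 stomatal markers was 335 and 258 in Ri17, against 270 and 247 in Col-0. The vascular sum is mostly SUC2, a phloem sugar transporter, which differed by 0.31 and 0.24, while the xylem genes IRX3 and XCP1 differed by 0.44 and -0.36 and by -0.09 and -0.39, with XCP1 Present on no MeJA array. Of the 4 stomatal markers, FAMA differed by 0.31 and 0.06 and KAT1 by 0.29 and 0.14. The summed signal of 2 trichome markers was 92.0 in Ri17 and 132 in Col-0 at 1 h, and at 4 h both markers were under the floor in both genotypes. The part of fewer or more cells of a type in the differences below was not tested, and on arrays of whole tissue it cannot be told apart from a change of RNA per cell. PYK10, a beta-glucosidase abundant in roots, had signals of 1160 and 2460 in Ri17 and 902 and 2280 in Col-0 under MeJA. On the untreated and wounded arrays the PYK10 signal lay at 27.3, 22.0 and 244 in Ri17, against 95.3, 156 and 97.7 in Col-0. The MeJA plants thus carried more PYK10 transcript than the others in both genotypes, and whether this reflects the tissue taken or the hormone was not tested.

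Under MeJA few transcripts stood apart between the genotypes at both times, and most of those by less than 2-fold. No probe set passed the limma test at an adjusted p of 0.05, either higher (0%) or lower (0%) in Ri17. The smallest adjusted p by limma was 0.897, and 772 of 15382 probe sets had an unadjusted p under 0.05. A fit to the 4 MeJA arrays alone also called 0 probe sets, with 1100 at an unadjusted p under 0.05. All differences below are therefore descriptions of these arrays and none passed the test.

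Without a model, 11 probe sets were at least 1 higher in Ri17 at both times and Present on both Ri17 arrays (0.0715%), and 1 was at least 1 lower at both times and Present on both Col-0 arrays (0.0065%). At a threshold of 0.58, which is 1.5-fold, the counts were 103 higher (0.67%) and 61 lower (0.397%). No probe set differed by 2 or more at both times. Only 4 of the 11 were Present on all 4 MeJA arrays, and with the floor at 60.9, the 90th percentile of Absent signals, the count was 7. The authors' deposited tables hold a call of increase or decrease for each pair of arrays. By these, 238 of the compared probe sets (1.55%) were called increased at both times and 120 (0.78%) decreased at both. Of the 11 probe sets, 8 were called increased at both times, and the 1 lower probe set was called decreased at both. At the threshold of 0.58, 38 of the 103 were called increased at both times and 23 of the 61 decreased. The calls were made from the same arrays as the differences, so this overlap is no separate support.

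**Figure D1:**
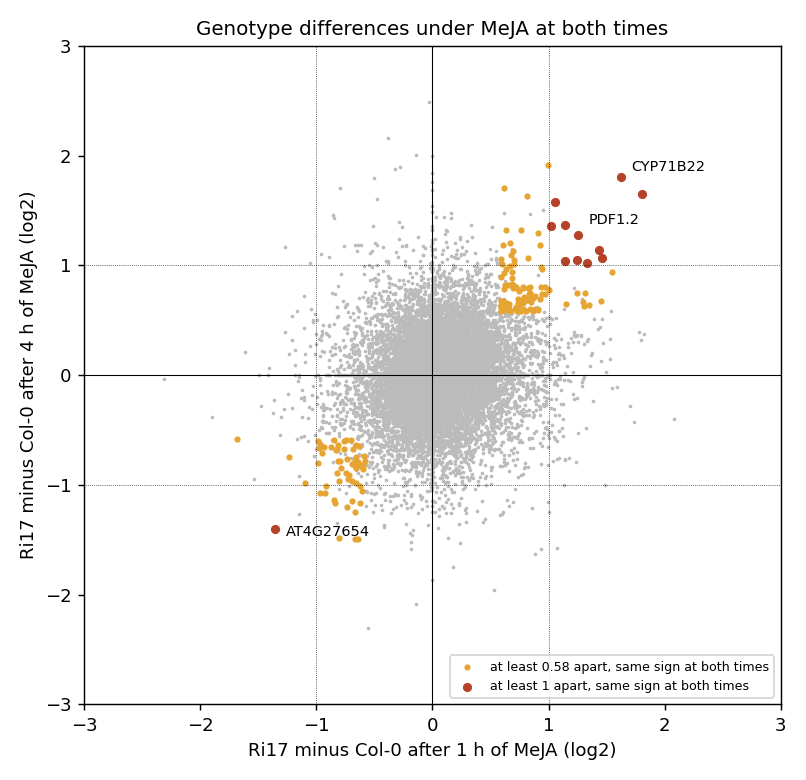
Log2 difference of Ri17 minus Col-0 after 1 h (horizontal axis) and 4 h (vertical axis) of MeJA, 1 point for each of 15382 probe sets. The 11 probe sets at least 1 higher at both times are marked in the upper right corner and the 1 lower probe set in the lower left, and the bulk of the points lies around 0 with little slope (Pearson r 0.15 across probe sets). Points at least 0.58 apart at both times are also marked.

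The direction of small differences depended on how the arrays were scaled. Of all probe sets, 30.5% were above 0 at both times and 23.5% below 0 at both, with medians of 0.025 at 1 h and 0 at 4 h. After quantile normalization these shares were 27.5% and 26%, and after centring each array on its median they were 21.4% and 37.6%. Counts at a threshold of 1 were 7 higher and 2 lower after quantile normalization, and 6 higher and 5 lower after centring. Of the original 11 higher probe sets, 6 were still at least 1 higher after quantile normalization and 6 after centring, and the 1 lower probe set stayed at least 1 lower under each. At 0.58 the split of 103 higher and 61 lower became 72 and 73 after quantile normalization and 63 and 99 after centring.

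The genotypes lay closer together under MeJA than in the other conditions. The standard deviation of the difference across probe sets was 0.34 at 1 h and 0.38 at 4 h of MeJA, against 0.53 in untreated plants and 0.50 and 0.62 at 30 min and 60 min after wounding. The share of probe sets that differed by at least 1 in either direction was 1.37% and 1.92% under MeJA, against 5.97% untreated and 5.32% and 8.44% after wounding. Without the requirement of a Present call, 11 probe sets were at least 1 higher and 2 at least 1 lower at both MeJA times, against 135 and 90 at both wound times. These spreads are values of single pairs of arrays, and whether they differ between conditions was not tested. Across probe sets, the difference at 1 h and that at 4 h of MeJA correlated at r = 0.15, and the differences at both wound times at r = 0.33. Probe sets are not independent replicates, and the pairs of 1 treatment share no array.

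The 11 higher probe sets are a mixed group of defence, enzyme and unknown genes. Those with no gene name were chosen after their values had been seen, to account for the count. Plant defensin PDF1.2 (AT5G44420), an antifungal peptide and the standard marker of the ethylene and jasmonate branch, had signals of 108 and 451 in Ri17, against 45.3 and 186 in Col-0. It was Present on all 4 arrays, and each Ri17 signal was above the Col-0 signal of its own time by close to the same factor, 2.39-fold at 1 h and 2.42-fold at 4 h. The mean log2 difference was 1.27 ± 0.19 (SE), with an adjusted p of 0.897 by limma.

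The cytochrome P450 gene CYP71B22 (AT3G26200) had signals of 160 and 514 in Ri17, against 52.0 and 147 in Col-0. Both Ri17 values lay above both Col-0 values. Neither Col-0 array was called Present, with an Absent call at 1 h and a Marginal call at 4 h. The log2 differences of 1.62 and 1.81 gave a mean of 1.71 ± 0.16.

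ACL5, described by the array annotation as a spermine synthase and known for its role in stem elongation and xylem development, had signals of 96.0 and 196 in Ri17, against 43.6 and 75.7 in Col-0. Both Ri17 values lay above both Col-0 values, and the Col-0 signal at 1 h was called Absent. The log2 differences were 1.14 and 1.37, with a mean of 1.25 ± 0.16.

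The pEARLI 1-like probe set, so named in its deposited description and belonging to a family of small proline-rich proteins with a lipid transfer domain, had signals of 132 and 1331 in Ri17, against 2.3 and 424 in Col-0. The Col-0 signal at 1 h was Absent and under the floor, so the log2 difference at 1 h was at least 1.81, and at 4 h it was 1.65. The same transcript stood lower in Ri17 elsewhere, with 1425, 523 and 539 in untreated and wounded Ri17, against 3118, 714 and 1023 in Col-0.

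A probe set described as like an anthocyanin 5-aromatic acyltransferase, an enzyme that decorates anthocyanin pigments, had 231 and 1316 in Ri17, against 83.8 and 628 in Col-0, the first of them Absent. It was Absent on all 6 arrays without MeJA. A probe set described only as a putative protein had 264 and 343 in Ri17, against 130 and 134 in Col-0, and was also Absent on all 6 arrays without MeJA. Its Ri17 signals were both above its Col-0 signals. For these 2 probe sets no genotype difference could be measured without MeJA.

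The remaining higher probe sets were a NAC-like and a myb factor, AT4G16000, an AIG2-like protein and an unknown protein. The NAC-like probe set, described as similar to the start of the NAC domain protein NAM, had 323 and 233 in Ri17, against 120 and 106 in Col-0, where it was Absent at both times. Its difference changed sign between conditions, with -1.41 untreated, a value lower in Ri17 by at least 0.94 at 30 min after wounding and one higher by at least 2.82 at 60 min. The putative myb factor had 108 and 580 in Ri17, against 43.0, with an Absent call, and 286 in Col-0. AT4G16000, of unknown function, had 91.3 and 113 in Ri17, against 44.0 and a signal under the floor in Col-0, so that its log2 difference was 1.05 at 1 h and at least 1.58 at 4 h. Both Col-0 signals of AT4G16000 were called Absent. The AIG2-like probe set had 628 and 2414 in Ri17, against 284 and 1173 in Col-0. The unknown protein had 130 and 463 in Ri17, against 54.9 and 224 in Col-0. It was also higher in Ri17 at both wound times, by 1.11 and 1.24, and differed by -0.24 without treatment. AT3G49160, described as like pyruvate kinases and chosen after its values had been seen, lay just under the threshold at 1 h, with 293 and 291 in Ri17, against 147 and 77.2 in Col-0.

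The 1 lower probe set was AT4G27654, a gene of unknown function. Its signals were 634 and 148 in Ri17, against 1626 and 390 in Col-0. At each time the Ri17 array was lower by nearly the same factor, 2.57-fold and 2.64-fold, on a transcript that was lower at 4 h than at 1 h in both genotypes. The mean log2 difference was -1.38 ± 0.14, with an adjusted p of 0.897 by limma. After wounding the gene reached 5896 and 3062 in Ri17, against 5392 and 2836 in Col-0, differences of 0.13 and 0.11.

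**Figure D2:**
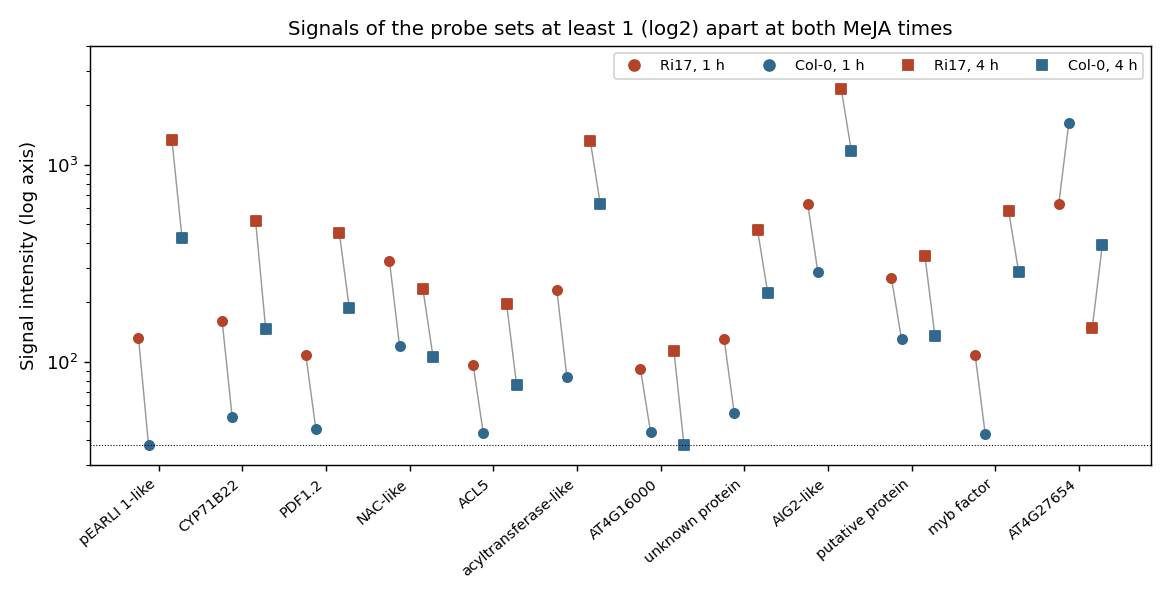
Signal intensity on a log axis of the probe sets at least 1 apart at both MeJA times, on the Ri17 and the Col-0 array of each time. The Ri17 signal is above the Col-0 signal of the same time for the 11 higher probe sets, such as PDF1.2 with 108 against 45.3 at 1 h, and below it for AT4G27654. Signals under the floor of 37.7 are drawn at the floor, the dotted line.

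Defence genes of the ERF branch included 3 of 6 that were higher in Ri17 at both times. Of 12 genes in that list, 6 had a compared probe set, and 3 were above 0 at both times (PDF1.2, PR4 and THI2.1), with none below 0 at both. Among all probe sets 30.5% were above 0 at both times and 23.5% below. Whether a list of 6 genes differs from these shares was not tested. The list medians were 0.41 at 1 h and 0.95 at 4 h, against 0.025 and 0 for all probe sets. PR4, a hevein-like protein with antifungal activity, had 319 and 2645 in Ri17, against 200 and 1146 in Col-0. The difference was larger at 4 h, 1.21, than at 1 h, 0.67, and the mean was 0.94 ± 0.35. The thionin THI2.1 (AT1G72260), an antimicrobial peptide, had 57.9 and 924 in Ri17, against 40.6 and 591 in Col-0. Its differences of 0.51 and 0.64 were smaller than the change between the times in either genotype. PDF1.2b, a near copy of PDF1.2, was Absent at 1 h in both genotypes, with 27.9 in Ri17 and 38.6 in Col-0. At 4 h it had 211 in Ri17, against 32.5 with an Absent call in Col-0, a difference of at least 2.49. The probe set of PDF1.2b is of a kind that can bind several related transcripts, so its signal and that of PDF1.2 may not be independent.

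The ethylene receptor ETR2 had 140 and 157 in Ri17, against 87.0 and 71.8 in Col-0. Both Ri17 values lay above both Col-0 values, and ETR2 had no Present call on the untreated arrays. Its mean difference was 0.91 ± 0.18, with an adjusted p of 0.897. EIN3, the transcription factor at the end of the ethylene pathway, differed by -0.01 and 0.07. In the ERF list, the factor ERF2 itself had differences of -0.32 and 0.68 and did not keep its sign. PDF1.4 differed by 0.31 at 1 h, where it was Absent in both genotypes, and was lower in Ri17 by at least 0.83 at 4 h. In the other pairs PDF1.4 differed by -2.09 untreated and by -1.58 and -1.13 after wounding. PR4 differed by -0.77 untreated and by -0.14 and 1.16 after wounding. In the wider family of 12 defensins and thionins named in the descriptions, 3 probe sets were above 0 at both times (25%) and 1 was below (8.33%). The shares of all probe sets were 30.5% and 23.5%. The family medians were 0.02 and 0.26, the first of which became -0.08 after median centring.

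Genes of jasmonate synthesis, the MYC branch and jasmonate perception had nearly equal signals in both genotypes under MeJA. Lipoxygenase LOX2, which starts jasmonate synthesis in the chloroplast, had 23898 and 26523 in Ri17, against 24538 and 32206 in Col-0. Allene oxide synthase AOS had 16966 and 17473 in Ri17, against 16767 and 18526 in Col-0. OPDA reductase OPR3 had 22591 and 10760 in Ri17, against 23639 and 11452 in Col-0. These signals are in the tenth of highest signal, from 2330 to 33600. Whether differences are narrowed at such signals was not tested. LOX2, OPR3 and AOS were higher in Ri17 untreated, by 0.65, 0.96 and 0.53, and at 30 min after wounding, by 0.38, 0.40 and 0.45. At 60 min they differed by -0.30, -0.29 and -0.28. Of 16 genes in the jasmonate synthesis list 5 were compared, of which 1 was above 0 at both times and 3 below. Among all probe sets 30.5% were above and 23.5% below. The list medians of -0.04 and -0.09 became 0.03 and 0 after quantile normalization. OPCL1, a ligase of the last steps, differed by -0.22 and -0.20, and AIM1, which acts in the beta-oxidation that shortens the side chain, differed by 0.15 and 0.27.

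The vegetative storage protein VSP1, a marker of the MYC branch, had 21955 and 25153 in Ri17, against 24064 and 27657 in Col-0. Without treatment it had 1039 in Ri17 and 319 in Col-0, a difference of 1.71, and under MeJA the difference was -0.13 and -0.14. The difference under MeJA minus that without treatment was -1.84 for VSP1, with an adjusted p of 0.359 by limma. The F-box protein COI1 had 352 and 272 in Ri17, against 318 and 265 in Col-0. MYC3 (AT5G46760) had 484 and 649 in Ri17, against 442 and 528 in Col-0. MYC4, a related factor, differed by 0.16 and 0.07. Of 11 genes in the perception list, these 3 were compared. Their small differences were above 0 at both times, as were those of 30.5% of all probe sets. In the family of 22 jasmonate and lipoxygenase probe sets, 2 were above 0 at both times (9.09%) and 7 below (31.8%). The shares of all probe sets were 30.5% and 23.5%. The family medians were 0 and -0.09, and after quantile normalization the counts were 5 and 6.

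Genes of tryptophan synthesis, which feeds indole glucosinolates and auxin and is induced by jasmonate, were slightly higher in Ri17, mainly at 4 h. Of 8 listed genes 4 were compared. All 4 were above 0 at both times, against 30.5% of all probe sets, with medians of 0.07 and 0.43. Their differences at 1 h were small, from 0.02 for TSA1 to 0.18 for ASA1. Median centring moved the 1 h median of all probe sets from 0.025 to -0.069. The direction of such small values at 1 h thus depends on the scaling. Anthranilate synthase ASA1 had 3096 and 6775 in Ri17, against 2727 and 4580 in Col-0. Tryptophan synthase alpha chain TSA1 had 1771 and 5276 in Ri17, against 1748 and 3158 in Col-0. At 1 h both genes were close in the 2 genotypes, and at 4 h they were 1.48-fold and 1.67-fold higher in Ri17. After wounding the medians of the list were 0.61 and 0.51, and without treatment the median was -0.09. In the broader family of 33 tryptophan and indole probe sets taken from the descriptions, 12 were above 0 at both times (36.4%) and 10 below (30.3%), close to the shares of all probe sets.

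SEN1, a gene induced in darkness and senescence, had 650 and 6967 in Ri17, against 407 and 3263 in Col-0. Each Ri17 array was higher than the Col-0 array of its time, and the signal at 4 h was far above that at 1 h in both genotypes. Without treatment the direction was opposite, with an Absent signal of 34.4 in Ri17, which is under the floor, against 255 in Col-0. The difference under MeJA minus that without treatment was 3.64 for SEN1 with the floor in place, with an adjusted p of 0.302 by limma. It rests on 1 untreated pair, whose spread was taken from the MeJA and wounded pairs. Only among the 12272 probe sets Present on all 4 MeJA arrays did it pass the threshold (adjusted p 0.0402 by limma). That filter uses the arrays on which SEN1 is high, so no support is drawn from it. GH3.3 (AT2G23170), an amido synthetase that conjugates auxin, had 143 and 1134 in Ri17, against 90.4 and 783 in Col-0. It was Absent without treatment in both genotypes. Of the salicylate defence list, 5 of 16 genes were compared, with 2 above 0 at both times and 2 below, against 30.5% and 23.5% of all probe sets. In that list PR5, a thaumatin-like protein, had 34.3 and 4.2 in Ri17, both under the floor, against 53.7 and 61.3 in Col-0.

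Enzymes that act on xyloglucan, a polysaccharide of the cell wall, were lower in Ri17 more often than higher. Most are described as enzymes that cut or rejoin it, and 1 of those below 0 at both times as a putative fucosyltransferase. Of 25 compared probe sets of this family, 11 were below 0 at both times (44%) and 1 above (4%), against 23.5% and 30.5% of all probe sets. The medians were -0.10 at 1 h and -0.10 at 4 h. After centring 15 were below 0 at both times and none above, and after quantile normalization 11 were below and 2 above, with medians of -0.13 and -0.01. The median of the mean difference was -0.29, and it was -0.10 with the higher floor and -0.04 with no detection filter. After wounding the family medians were also below 0, at -0.27 and -0.54, and without treatment the median was 0.08. XTH33 (AT1G10550) had 1844 and 165 in Ri17, against 3094 and 305 in Col-0. XTH18 (AT4G30280) had 2787 and 348 in Ri17, against 4499 and 773 in Col-0. Both genes had high signal at 1 h that was much lower at 4 h in either genotype, and the Ri17 signal was the lower one each time.

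The probe set described as XTR-6 had 1759 and 258 in Ri17, against 4144 and 435 in Col-0. Another, described as a putative xyloglucan endotransglycosylase, had 405 and 68.5 in Ri17, against 630 and 193 in Col-0. With XTH33 and XTH18 these are the 4 family members at least 0.58 lower at both times. No member was 0.58 or more higher at both. The mean differences of the 4 lower members ran from -1.07 ± 0.24 for this putative enzyme to -0.82 ± 0.26 for XTH33, each with an adjusted p of 0.897. XTH16 (AT3G23730) differed by -0.10 and -0.56, and XTH19 (AT4G30290) by -0.74 and -0.10. Not every member followed, since XTH32 differed by 0.18 and -1.07, and EXGT-A3 by -0.03 and 0.08.

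Other wall protein families are set against 23.5% of all probe sets below 0 at both times and 30.5% above. Among 15 expansins, which loosen walls, 6 were below 0 at both times (40%) and 1 above (6.67%), with medians of -0.02 and -0.24. Among 5 arabinogalactan proteins 3 were below 0 at both times and none above, with medians of -0.29 and -0.24. Among 7 germin-like proteins 5 were below and 1 above, with medians of -0.10 and -0.16. Without treatment the expansin median had the opposite sign, 1.09, and that of arabinogalactan proteins was 0.82. Among 75 pectin-modifying probe sets, 25 were below 0 at both times (33.3%) and 14 above (18.7%), with medians of 0.01 and -0.13. Among 45 extensin and proline-rich probe sets, 11 were below (24.4%) and 8 above (17.8%), with medians of 0 and -0.01. At 30 min and 60 min after wounding each of these families had medians below 0. They were -0.24 and -0.71 for expansins, -0.10 and -0.42 for arabinogalactan proteins and -0.18 and -0.46 for pectin-modifying probe sets.

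NAC factors, plant transcription factors with roles in senescence and stress, were higher in Ri17 more often than lower. Of 27 compared probe sets, 13 were above 0 at both times (48.1%) and 2 below (7.41%), against 30.5% and 23.5% of all probe sets. The medians were 0.14 and 0.36. After median centring 13 were above and 8 below, and the median was 0.05 at 1 h. The median of the mean difference was 0.35, and it was 0.12 with the higher floor and 0 with no detection filter. Besides the NAC-like probe set above, one described as NAM-like and chosen after its values had been seen had 1979 and 2814 in Ri17, against 1058 and 2129 in Col-0. NAC014 (AT1G33060) had 317 and 191 in Ri17, against 250 and 143 in Col-0. The NAC median was -0.37 without treatment and 0.50 at 60 min after wounding.

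Signalling families had medians between 0 and 0.11. Among all probe sets, 30.5% were above 0 at both times and 23.5% below. Of 33 MAP kinase cascade probe sets 17 were above 0 at both times (51.5%) and 5 below (15.2%), with medians of 0.08 and 0.11, and the median at 1 h became -0.02 after median centring. Of 162 receptor-like and leucine-rich repeat kinases 54 were above (33.3%) and 29 below (17.9%), with medians of 0.09 and 0. After centring 45 of these kinases were above and 64 below. The receptor-like kinase gene AT2G19130 had 247 and 402 in Ri17, against 130 and 177 in Col-0, a mean difference of 1.06 ± 0.18. It was also higher in Ri17 after wounding, with 1741 and 1640 in Ri17, against 1013 and 748 in Col-0. Another receptor-like kinase gene, AT5G65240, had 92.5 and 88.6 in Ri17, against 35.4 and 56.0 in Col-0, so its difference at 1 h was at least 1.29. Of 72 calmodulin and calcium sensor probe sets 25 were above (34.7%) and 10 below (13.9%). Their medians of 0.11 and 0.07 were 0.01 and 0.02 after centring. The calmodulin-binding protein gene AT2G18750 had 308 and 230 in Ri17, against 207 and 123 in Col-0. Among 34 protein phosphatases 2C, negative regulators in several hormone pathways, 14 were above (41.2%) and 5 below (14.7%). After centring 10 were above and 11 below. In the original scaling 2 were at least 0.58 lower at both times. One of them, AT3G16560, had 201 and 425 in Ri17, against 380 and 857 in Col-0.

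Lectins, carbohydrate-binding proteins with defence roles, had 10 of 20 probe sets above 0 at both times (50%) and none below. The shares of all probe sets were 30.5% and 23.5%. The lectin medians were 0.30 and 0.03. The median at 4 h became -0.02 after median centring, under which 5 were below at both times. The lectin gene AT3G16530 had 2887 and 11671 in Ri17, against 843 and 8902 in Col-0. It was 3.42-fold higher in Ri17 at 1 h and 1.31-fold at 4 h, when both genotypes had high signal.

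**Figure D3:**
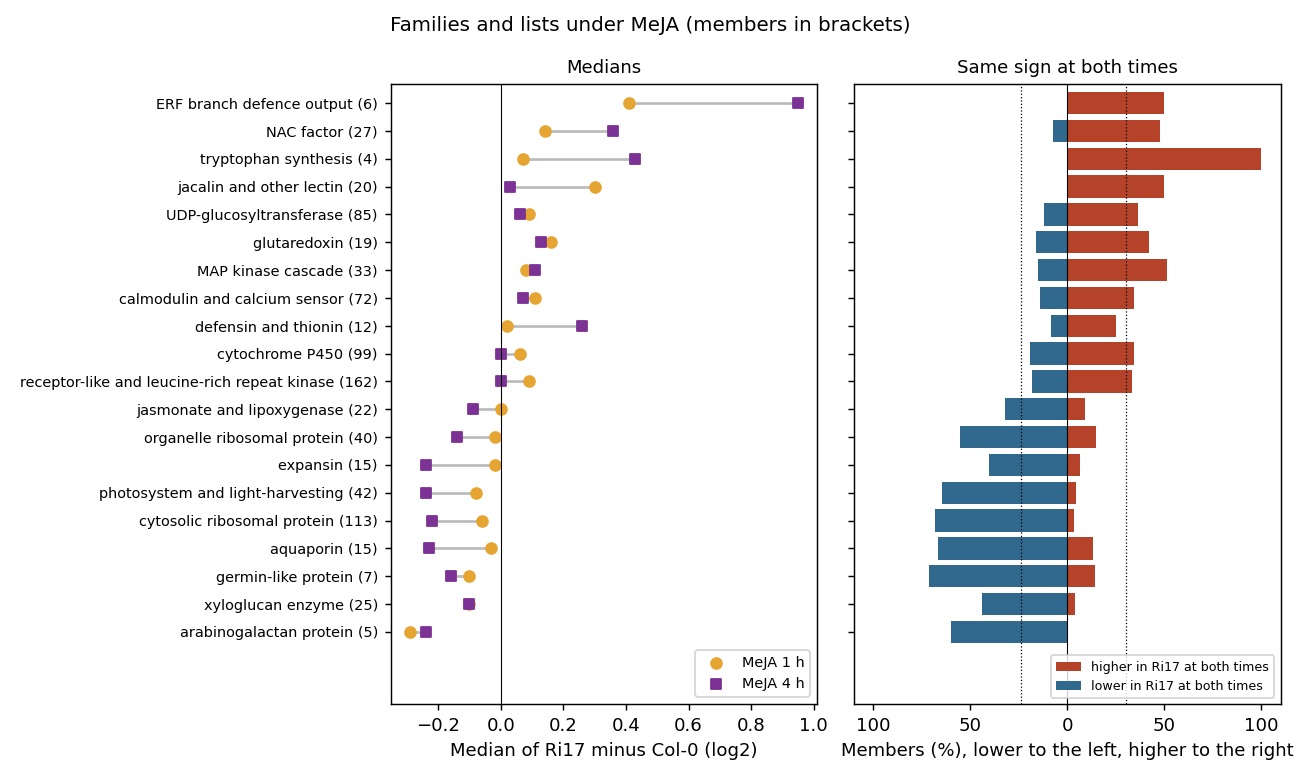
Families from the array descriptions and gene lists, with the median log2 difference of Ri17 minus Col-0 at 1 h and 4 h of MeJA (left) and the percentage of members above or below 0 at both times (right, dotted lines at the shares of all compared probe sets). Cytosolic ribosomal proteins have 68.1% of members below 0 at both times and NAC factors 48.1% above, against 23.5% and 30.5% of all compared probe sets.

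Glutaredoxins, small thiol enzymes that in plants also act with TGA factors in jasmonate and salicylate signalling, had 8 of 19 probe sets above 0 at both times (42.1%) and 3 below (15.8%), against 30.5% and 23.5% of all probe sets. The medians were 0.16 and 0.13. After centring 6 were above and 5 below, with medians of 0.07 and 0.08. AT5G18600 had 845 and 4274 in Ri17, against 611 and 2287 in Col-0. AT4G15660 had 555 and 1495 in Ri17, against 428 and 789 in Col-0. AT3G62930 had 74.7 and 133 in Ri17, against 39.6 and 106 in Col-0. These glutaredoxin genes were higher on the Ri17 array at each MeJA time. GRX480 (AT1G28480), which is induced by salicylate, went the other way, with 224 and 620 in Ri17, against 317 and 787 in Col-0. After wounding GRX480 was higher in Ri17 by 0.90 and 0.72. There AT5G18600 differed by -0.35 and -0.88, AT3G62930 by -0.81 and -0.68, and AT4G15660 by 0.11 and -0.30.

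Among enzymes of specialised metabolism, 99 cytochrome P450 probe sets included 34 above 0 at both times (34.3%) and 19 below (19.2%). These lay near the shares of all probe sets, 30.5% and 23.5%. Of the P450 probe sets, 2 were at least 0.58 higher and 2 at least 0.58 lower at both times. CYP71B35 (AT3G26310), of the same subfamily as CYP71B22, was on the low side, with 167 and 125 in Ri17, against 266 and 214 in Col-0. Of 85 UDP-glucosyltransferases, which attach sugars to hormones and metabolites, 31 were above (36.5%) and 10 below (11.8%), with medians of 0.09 and 0.06, the first of which became -0.01 after median centring. Chalcone synthase CHS, the first enzyme of flavonoid synthesis, had 99.7 and 149 in Ri17, against 163 and 185 in Col-0. Without treatment CHS had 7279 in Ri17 and 1061 in Col-0, a difference of 2.78, and the difference under MeJA minus that without treatment was -3.29, with an adjusted p of 0.359 by limma.

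Ribosomal and photosynthesis genes were lower in Ri17 by small amounts in most members. Among all probe sets, 23.5% were below 0 at both times and 30.5% above. Of 113 cytosolic ribosomal protein probe sets 77 were below 0 at both times (68.1%) and 4 above (3.54%), with medians of -0.06 and -0.22. None was 0.58 or more lower at both times, and the mean differences ran from -0.46 to 0.30. The ribosomal protein L14 gene AT2G20450 had 1128 and 1519 in Ri17, against 1527 and 2130 in Col-0. Of 42 photosystem and light-harvesting probe sets 27 were below 0 at both times (64.3%) and 2 above (4.76%), with medians of -0.08 and -0.24. PSAN (AT5G64040), a subunit of photosystem I, had 17282 and 10990 in Ri17, against 19217 and 14522 in Col-0. Of 40 organelle ribosomal probe sets 22 were below and 6 above, and of 15 aquaporins, the water channels, 10 were below and 2 above.

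The median signal of these families was 5510 for cytosolic ribosomal, 16500 for photosystem, 3240 for organelle ribosomal and 5860 for aquaporin probe sets, and over all probe sets the difference varied with signal. In the tenth of probe sets with the highest signal, from 2330 to 33600, the medians were -0.042 and -0.080 and 43.6% were below 0 at both times, against 19.6% above. In the tenth with signals from 224 to 324 the medians were 0.096 and 0.063, and 38.5% were above 0 at both times, against 19.1% below. After quantile normalization 55 of the 113 cytosolic ribosomal probe sets were below 0 at both times and 9 above, with medians of -0.02 and -0.17. For photosystem probe sets the same scaling gave 16 below and 6 above, with medians of 0 and -0.13, and for aquaporins 5 below and 2 above, with a median of 0.05 at 1 h. In untreated plants the sign was opposite, with medians of 0.50 for cytosolic ribosomal, 0.64 for organelle ribosomal and 0.39 for photosystem probe sets, and the tenth of highest signal had a median of 0.136. At 30 min and 60 min after wounding the medians were -0.32 and 0.18 for cytosolic ribosomal and -0.15 and -0.26 for organelle ribosomal probe sets. Those of photosystem probe sets were -0.23 and -0.44, and those of aquaporins -0.46 and -0.52. The part of signal level in these family medians was not tested further.

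**Figure D4:**
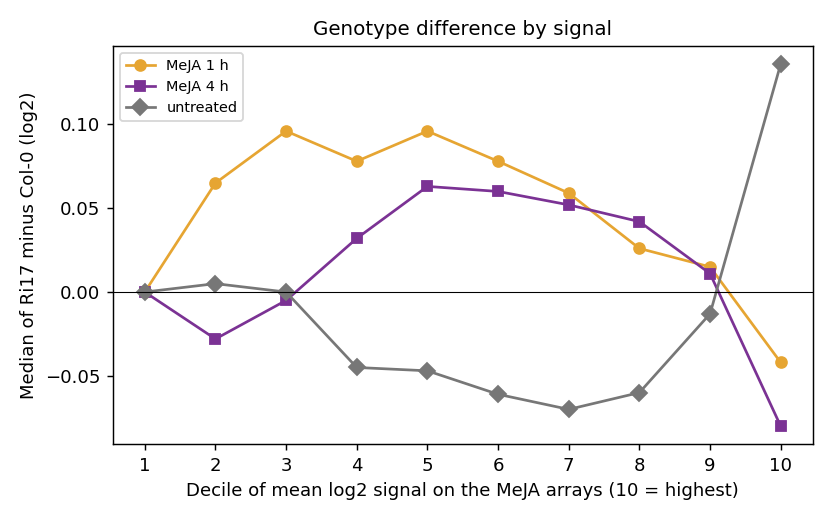
Median log2 difference of Ri17 minus Col-0 in 10 groups of probe sets ordered by mean signal, for both MeJA pairs and the untreated pair of arrays. Under MeJA the group of highest signal has medians of -0.042 at 1 h and -0.08 at 4 h, and it has 0.136 in untreated plants.

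A few genes differed in opposite directions at 1 h and 4 h. By at least 1 at both times, 4 probe sets were higher in Ri17 at 1 h and lower at 4 h, and 2 were lower and then higher. Among the first, AT5G47330, described as like a palmitoyl-protein thioesterase, had 256 in Ri17 and 122 in Col-0 at 1 h. At 4 h it had 36.4 with an Absent call in Ri17, against 112 in Col-0, so that it was lower by at least 1.57 on the log2 scale. AT1G51430, of unknown function, differed by 1.49, against an Absent signal in Col-0, and by -1.0. With a value under 1 at 1 h, AT1G12010, described as an ACC oxidase, the enzyme that makes ethylene, had 80.7 and 104 in Ri17, against 146 and 9.2 in Col-0. Its difference was -0.86 at 1 h and at least 1.46 at 4 h. AT1G76210, of unknown function, differed by -0.85 and 1.43. With 1 array per time these opposite values cannot be told apart from array noise.

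No probe set had a genotype difference under MeJA that differed from that after wounding at an adjusted p of 0.05 (0%). The smallest adjusted p by limma was 0.43, and 1483 probe sets had an unadjusted p under 0.05. For MeJA against no treatment the count was also 0 (0%), with a smallest adjusted p of 0.302 and 1915 at an unadjusted p under 0.05. Among the leading genes, PDF1.2 was higher in Ri17 in every pair, by 2.02 without treatment and by 0.73 and 0.22 after wounding. CYP71B22 differed by 0.60 untreated and by 0.38 and 0.62 after wounding, but its Col-0 signal was Absent in each of these pairs and its Ri17 signal at 30 min as well. ACL5 differed by 0.41 untreated and by -0.06 and -0.18 after wounding, with Absent calls in both genotypes untreated and at 60 min, and its difference under MeJA minus that after wounding was 1.38 (adjusted p 0.436). For the pEARLI 1-like probe set the difference under MeJA minus that after wounding was 2.42 (adjusted p 0.43), and for AT4G27654 it was -1.50 (adjusted p 0.43), all by limma. XTH33 was lower in Ri17 after wounding as well, by at least 2.06 and at least 1.15 on the log2 scale, while XTH18 and XTR-6 were higher at 60 min, by 0.86 and 0.93. The xyloglucan family as a whole had medians of -0.27 and -0.54 after wounding.

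**Figure D5:**
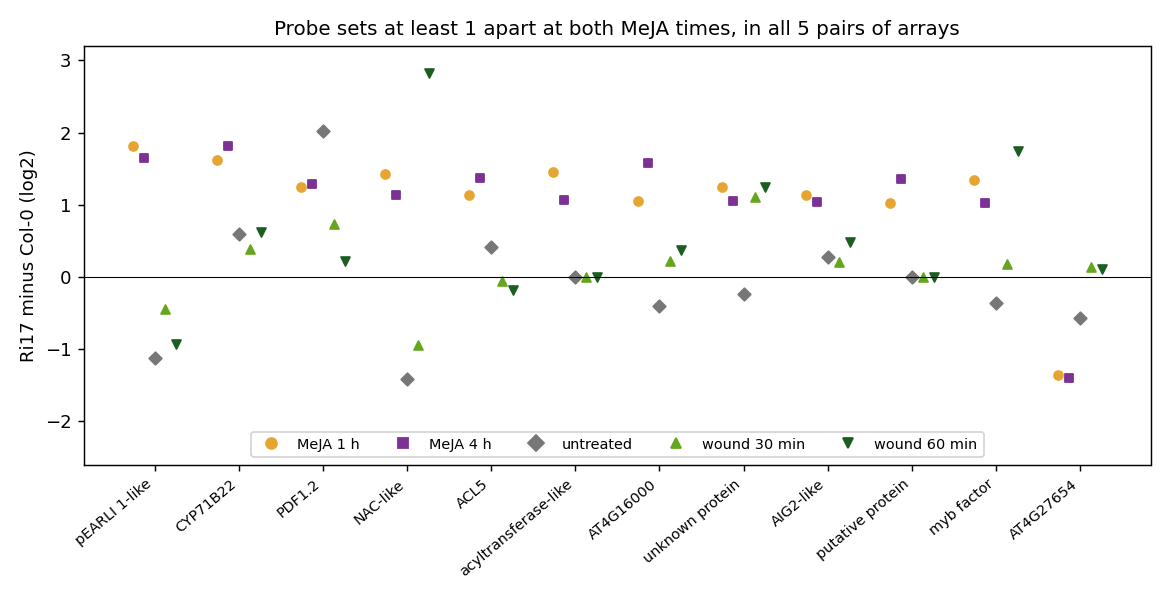
Log2 difference of Ri17 minus Col-0 for the 12 probe sets at least 1 apart at both MeJA times, 1 point for each of the 5 pairs of arrays (MeJA 1 h and 4 h, untreated, 30 min and 60 min after wounding). PDF1.2, Present on every array, lies above 0 in every pair, while the pEARLI 1-like probe set lies at -1.13 untreated and at -0.45 and -0.93 after wounding.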

How the data were processed

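RNA of 10 leaf samples was hybridised to Affymetrix ATH1 arrays, 1 array per genotype and condition. The authors made the deposited signal intensities with GCOS, per the submitters' processing notes (no version given). Every array has the same trimmed mean of 500.1 (2% cut at each end). The deposited comparison tables hold, per the file headers, detection calls, change calls, a log2 ratio of the Ri17 over the Col-0 array, and a p-value of that change that runs from increase (low) to decrease (high). Of these the detection and change calls were used.

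Signals were floored at 37.7, the 75th percentile of signals called Absent, and probe sets Present on at least 2 of 10 arrays were kept. The annotation table gave 1 gene for 13513 probe sets, several for 503 and none for 8794; 13436 matched the RefSeq TAIR10.1 gene table, and 58 were named from their description. limma 3.58.1 in R 4.3.3 was fitted to all 10 arrays, with condition and a genotype effect of its own for untreated, MeJA and wounded pairs (2 residual degrees of freedom), two-sided, Benjamini-Hochberg adjusted. The code of the fit was also run on simulated data in which every probe set had the same spread. Real probe sets differ in spread, so that run does not measure the precision of the fit here. The labels do not say whether samples came from separate cultures.

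Values were computed for 56 families found by words of the deposited descriptions, holding 2409 kept probe sets. Gene lists numbered 25, and of their 319 genes 90 were matched. The text describes only some of these families and lists. Families such as WRKY, MYB and AP2 domain factors, peroxidases and heat shock proteins are left out. By rule, named genes are those at least 1 apart at both times and up to 4 members of a described family or list, by the smaller of both differences. Up to 4 per direction with opposite signs at the 2 times were added. Some genes outside this rule are said to be chosen after their values. Others are named outside it without that remark, among them XTR-6, XTH32, EXGT-A3, ERF2, EIN3, PDF1.2b and PR5. Members, lists and rules were chosen with earlier results of these data known. Alternatives covered scaling, floor, detection filter, samples and terms of the fit, variance model, size of difference and each MeJA array left out. Counts and plots used Python 3.11.15, pandas 2.3.3, numpy 2.4.6 and matplotlib 3.10.9. The number of arrays limits the precision.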

Additional observations from a re-analysis of the deposited data

Results flagged for a closer look

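Some genotype differences had 1 sign on both MeJA pairs and the opposite sign on both wounded pairs. ACL5, described by the array annotation as a spermine synthase, was higher in Ri17 by 1.14 and 1.37 under MeJA, and differed by -0.06 and -0.18 after wounding. At 30 min of wounding its signals were 199 in Ri17 and 208 in Col-0, both Present, and at 60 min both were Absent, as was the Col-0 signal at 1 h of MeJA, so no opposite direction is read from them. The pEARLI 1-like probe set differed by 1.81 and 1.65 under MeJA, the first of which is a bound, and by -0.45 and -0.93 after wounding. AT4G27654 differed by -1.36 and -1.40 under MeJA and by 0.13 and 0.11 after wounding. For these genes the difference between both treatments did not pass the limma test, with adjusted p of 0.436, 0.43 and 0.43.

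The glutaredoxin family had medians of 0.16 and 0.13 under MeJA and of -0.13 and -0.11 after wounding. The defensin and thionin family had medians of 0.02 and 0.26 under MeJA and of -0.03 and -0.17 after wounding. The difference between treatments was not tested for these families. The MeJA arrays also differ from the wounded ones in growth and harvest as the labels give them and in the PYK10 signal, and the part of these in the values was not tested.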

How the results depend on the processing

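The counts of 0 from limma under MeJA, higher and lower, stayed at 0 in all 15 alternatives run, and so did that of MeJA against wounding in those run for it. The difference of MeJA against no treatment gave 3 probe sets with the filter Present on all 4 MeJA arrays, which tests fewer probe sets. That filter uses the MeJA arrays themselves, and the untreated side is 1 pair, so no support is drawn from it. The count at least 1 higher at both times was 7 after quantile normalization, 6 after median centring, 7 with the floor at the 90th percentile of Absent signals, 4 with Present on all 4 MeJA arrays, 103 at a threshold of 0.58 and 0 at a threshold of 2. The count at least 1 lower was 2, 5, 5 with a floor of 1, 61 and 0 for quantile normalization, centring, that floor and both thresholds. With 1 genotype effect over all 5 pairs, which averages in the untreated and wounded pairs by construction, the mean difference turned sign for SEN1 (-0.24), AT5G18600 (-0.09), AT3G62930 (-0.03), LOX2 (0.08), OPR3 (0.18), AOS (0.13), VSP1 (0.46), COI1 (-0.14), AT2G20450 (0.11), GRX480 (0.43) and CHS (0.05). AOS also turned to 0.11 after quantile normalization. With the higher floor AT5G47330 turned to 0.1, AT1G51430 to -0.03 and AT1G12010 to -0.05. Leaving out either array of 1 time leaves the other time alone, which gave -0.08 to 0.02 for AOS, -1.57 to 1.08 for AT5G47330, -1.0 to 1.49 for AT1G51430, -0.86 to 1.46 for AT1G12010, -0.85 to 1.43 for AT1G76210 and -0.03 to 2.49 for PDF1.2b. The median of receptor-like kinases became -0.07 after median centring and that of jasmonate and lipoxygenase probe sets 0.05 after quantile normalization. The cause of the other changes was not tested. No paired analysis was possible because the labels give 1 array per genotype and condition, so that no replicate numbers pair arrays beyond the time already in the fit.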
